A study of Mus musculus with 8 samples.

Results

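The SOX transcription factors described here are 10 genes, Sox4, Sox5, Sox6, Sox8, Sox9, Sox11, Sox12, Sox13, Sox17 and Sox18, picked by name from the 32859 genes of the count table. RNA was sequenced from primary portal fibroblasts of the mouse liver that had been sorted for the red reporter tdT, taken from normal Clec3bCreERT2;R26tdT mice. In these mice an inducible Cre is driven from Clec3b and switches on tdT, so both groups carry the Cre and the reporter and share the sort. The question was what Klf4 does to these cells, which can become myofibroblasts. The sorted cells were transduced either with a control lentivirus (Lenti-Ctrl, 4 libraries) or with a lentivirus that overexpresses Klf4 (Lenti-Klf4, 4 libraries). The labels give neither the number, age or sex of the mice nor the time after transduction, and no separate animals or cultures are named for the replicates of a group. Unless they were separate, the p-values below measure only the spread between these libraries. Values are normalised read counts (CPM, counts scaled to a common library size with TMM factors) given as mean ± SD with n = 4 libraries per group unless stated. Folds are ratios of mean CPM.

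SOX proteins bind the minor groove of DNA through an HMG box and bend it, and they usually act together with partner factors. The family falls into subgroups by sequence. SOXC factors (Sox4, Sox11, Sox12) are activators of progenitor cells, SOXD factors (Sox5, Sox6, Sox13) lack an activation domain of their own, SOXE factors (Sox8, Sox9, Sox10) act in cartilage, neural crest and testis, and SOXF factors (Sox7, Sox17, Sox18) act in endothelium. In the liver SOX9 marks biliary cells and is known from activated stellate cells in fibrosis, and SOX4 acts beside it in bile duct formation.

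Klf4 itself rose 2.61-fold, from 87.3 ± 3.82 to 228 ± 17.9 CPM (a change of 1.38 on the log2 scale, SE 0.0555), and every Lenti-Klf4 library was above every Lenti-Ctrl library. Counts from the vector and from the endogenous gene were not told apart. The libraries held 57306334 to 87361995 counts. Of the 12 fibroblast markers, 9 fell and 2 rose at an adjusted p of 0.05, where 37.5% of all genes tested were higher and 34.7% lower. Gli1, among the 2 that rose, had 8 counts over Lenti-Ctrl and 193 over Lenti-Klf4, so its direction was largely set by the filter. Clec3b, after which the Cre allele is named, was below the filter with 4 counts over Lenti-Ctrl and 73 over Lenti-Klf4. The summed level of the 12 markers was 28739 to 30310 CPM in Lenti-Ctrl and 11647 to 13298 CPM in Lenti-Klf4. The 19 macrophage and leukocyte markers summed to 5549 to 5953 CPM in Lenti-Ctrl and 184 to 255 CPM in Lenti-Klf4, with 3 of them at 0 in Lenti-Klf4. The part of these cells in the SOX results was not tested.

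All 10 SOX genes passed an adjusted p of 0.05 by edgeR's quasi-likelihood test, with higher values for 4 and lower values for 6 after Lenti-Klf4. In the same fit 72.2% of 18439 genes passed, 37.5% higher and 34.7% lower, and the 10 of 10 has to be read against these shares. The same holds for the calls on each list of targets, partners and markers. The rises were in Sox4, Sox9, Sox11 and Sox12, and the falls in Sox5, Sox6, Sox8, Sox13, Sox17 and Sox18. For all 10 genes the Lenti-Klf4 libraries did not overlap the Lenti-Ctrl libraries, which held for 69.2% of all genes tested, and the exact two-sided permutation test gave each gene p = 0.0286, the smallest that 70 splits allow. The changes were often large. Counting those past the same adjusted p, 9 of 10 SOX genes had a log2 fold change of 1 or more in either direction, against 34.1% of all genes, with Sox8 at -1.0 and Sox5 at -1.01 next to that limit. The 3 genes Sox9, Sox17 and Sox18 were past a log2 fold change of 3, against 8.53% of all genes. The median absolute log2 fold change was 2.02 for the SOX genes and 0.70 for all genes tested, and the median signed value was -1.01 against 0.0338.

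**Figure D1:**
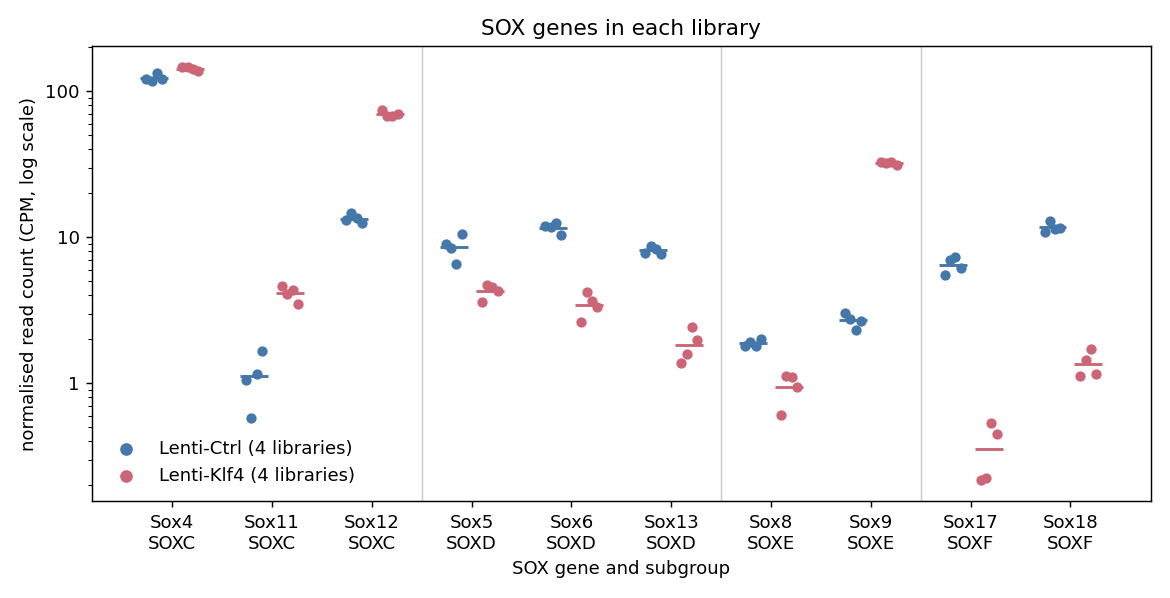
Normalised read counts (CPM, log axis) of the 10 SOX genes, grouped by subgroup; each point is 1 library and each bar the mean of 4. Sox9 moved from 2.69 to 32.2 CPM and Sox12 from 13.4 to 69.9 CPM, while both SOXF genes fell, and in no gene do the groups overlap.

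The SOXC genes rose together but by very different amounts. Sox4, the most abundant SOX gene, was at 122, 118, 134 and 122 CPM in Lenti-Ctrl and 146, 148, 142 and 138 CPM in Lenti-Klf4. The groups were separate but close, with a 1.16-fold rise from 124 ± 6.87 to 143 ± 4.33 CPM (a change of 0.21 on the log2 scale, SE 0.0422, adjusted p = 6.96e-04). The size of this small rise depended on the scaling, with a log2 fold change of 0.40 when libraries were scaled by their totals alone, a setting that moved the median of all genes by 0.19. Sox12 was at 13.1, 14.6, 13.5 and 12.5 CPM in Lenti-Ctrl and 74.4, 67.5, 67.4 and 70.2 CPM in Lenti-Klf4. Every Lenti-Klf4 library thus lay far above every control, a 5.21-fold rise (log2 fold change 2.38, SE 0.0600, adjusted p = 4.04e-12). Sox11, best known from the developing nervous system, was scarce, at 1.05, 0.581, 1.16 and 1.67 CPM in Lenti-Ctrl and 4.65, 4.10, 4.37 and 3.49 CPM in Lenti-Klf4. It rose 3.72-fold (log2 fold change 1.9, SE 0.273, adjusted p = 4.29e-05) on 272 counts over the control libraries and 1175 over the others, and its control libraries varied more, relative to their mean, than those of the other SOX genes.

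The SOXC genes are also alike in structure. In the GENCODE M21 annotation the coding transcripts of Sox4 and Sox11 have a single exon, and Sox12 has at most 2. The deposited table (GRCm39) places Sox4 on chromosome 13 from 29132902 to 29137696, Sox11 on chromosome 12 from 27384263 to 27392573 and Sox12 on chromosome 2 from 152235531 to 152239983, all on the minus strand. Because these genes moved together, their promoter windows were searched on both strands for CACCC, the GT box bound by Kruppel-like factors, and for GGGCGG, the GC box bound by Sp and Kruppel-like factors, a search added after the data were seen. The windows run from 250 bases before to 50 bases after the start, 5′ to 3′ on the gene's strand, from RefSeq on GRCm38.p6 at chr13:28953650-28953949 (Sox4), chr12:27342669-27342968 (Sox11) and chr2:152397997-152398296 (Sox12). Capitals mark either motif or its reverse complement, overlapping GC boxes run together, and the sequences are shown so that the windows can be compared.
Sox4: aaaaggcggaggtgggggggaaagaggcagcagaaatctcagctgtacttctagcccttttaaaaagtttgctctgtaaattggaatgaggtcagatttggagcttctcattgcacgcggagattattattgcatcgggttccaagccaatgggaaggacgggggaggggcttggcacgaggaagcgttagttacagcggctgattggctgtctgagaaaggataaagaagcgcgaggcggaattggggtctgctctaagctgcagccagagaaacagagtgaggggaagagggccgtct
Sox11: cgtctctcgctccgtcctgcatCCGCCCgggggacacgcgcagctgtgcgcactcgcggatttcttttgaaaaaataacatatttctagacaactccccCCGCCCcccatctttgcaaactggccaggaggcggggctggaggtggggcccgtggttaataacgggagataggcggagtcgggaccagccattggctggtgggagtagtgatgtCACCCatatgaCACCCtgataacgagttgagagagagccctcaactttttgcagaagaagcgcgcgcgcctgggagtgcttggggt
Sox12: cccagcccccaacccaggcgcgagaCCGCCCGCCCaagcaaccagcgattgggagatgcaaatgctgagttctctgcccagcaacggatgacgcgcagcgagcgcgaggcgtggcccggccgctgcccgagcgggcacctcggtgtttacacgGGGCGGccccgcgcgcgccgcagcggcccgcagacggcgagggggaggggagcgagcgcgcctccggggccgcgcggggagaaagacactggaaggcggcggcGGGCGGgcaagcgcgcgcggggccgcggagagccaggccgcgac
The Sox12 window held 4 GGGCGG and 0 CACCC matches, the Sox11 window held 2 of each, and the Sox4 window held 0 of either. Among the SOX genes that fell, the Sox13 window and the Sox5 window held 0 of either. Sox6 has 6 windows in the table, 1 with 4 GGGCGG matches, as many as Sox12, and 2 with 1 CACCC match each. Over all 32851 windows of 300 bases, 57.5% held CACCC and 35.7% held GGGCGG. The windows were 52.0% (Sox4), 58.7% (Sox11) and 76.7% (Sox12) G or C, against a median of 52.7%. The SOX core motif ACAAT, found in 31.0% of all windows, was in 0 of these 3. A match is a description of the sequence, and no binding was measured here.

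The SOXE genes went opposite ways. Sox9, which is required for cartilage and is expressed in bile ducts, had the largest rise of the 10 (chromosome 11, 112673050 to 112678586, plus strand). It was at 3.03, 2.75, 2.33 and 2.67 CPM in Lenti-Ctrl and 32.9, 32.2, 32.8 and 31.1 CPM in Lenti-Klf4. The 4 Lenti-Klf4 libraries sat within a narrow band around 32.2 ± 0.794 CPM, 12.0-fold above the controls (log2 fold change 3.57, SE 0.0894, adjusted p = 3.83e-12). Sox8, its closest paralog among the 10, was at 1.80, 1.91, 1.81 and 2.01 CPM in Lenti-Ctrl and 0.603, 1.13, 1.10 and 0.946 CPM in Lenti-Klf4. It was 2.00-fold lower (log2 fold change -1.0, SE 0.249, adjusted p = 0.0031), with the lowest value in Lenti-Klf4 replicate 1.

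Sox8 stands head to head with another gene that fell. On GRCm39 the long noncoding RNA gene Cerox1 begins 20 bases from the Sox8 start (chromosome 17, 25784634 to 25789726, minus strand) on the other strand. Cerox1, a cytoplasmic RNA known as a regulator of the respiratory chain, fell from 5.24 ± 0.859 to 0.641 ± 0.236 CPM (a change of -3.02 on the log2 scale, adjusted p = 8.17e-07). The Sox8 promoter window (RefSeq, GRCm38.p6, chr17:25570637-25570936, minus strand) is shown because Cerox1 starts so near to it, with CACCC and GGGCGG matches in capitals.
Sox8: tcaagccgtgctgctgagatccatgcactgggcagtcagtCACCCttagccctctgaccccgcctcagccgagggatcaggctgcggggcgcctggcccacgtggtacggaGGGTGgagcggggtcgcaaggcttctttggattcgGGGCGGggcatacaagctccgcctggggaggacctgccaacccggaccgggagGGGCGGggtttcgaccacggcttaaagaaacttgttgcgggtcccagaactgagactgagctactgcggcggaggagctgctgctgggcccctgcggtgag
This window held 2 CACCC and 2 GGGCGG matches and was 66.3% G or C. Sox9 also has a close neighbour, the long noncoding RNA gene BC006965 at 248 bases, but that gene had at most 0.0209 ± 0.0324 CPM (Lenti-Klf4) and was below the filter. Downstream of Sox9, at 256115 bases, the noncoding 2610035D17Rik rose with a log2 fold change of 1.31 to 2.53 ± 0.776 CPM (adjusted p = 8.84e-04).

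The SOXD genes all fell. SOX5 and SOX6 are known to work with SOX9 on cartilage genes, and SOX13 is a related factor of the lymphoid and arterial systems. Sox13 was at 7.86, 8.68, 8.33 and 7.64 CPM in Lenti-Ctrl and 1.37, 1.59, 2.42 and 1.97 CPM in Lenti-Klf4. It fell 4.43-fold (log2 fold change -2.15, SE 0.181, adjusted p = 2.91e-07), with no overlap. Sox6 was at 12.0, 11.8, 12.5 and 10.3 CPM in Lenti-Ctrl and 2.62, 4.24, 3.64 and 3.32 CPM in Lenti-Klf4, 3.37-fold lower (log2 fold change -1.75, SE 0.151, adjusted p = 3.45e-07). Sox5 was at 8.96, 8.46, 6.61 and 10.5 CPM in Lenti-Ctrl and 3.60, 4.71, 4.56 and 4.28 CPM in Lenti-Klf4, 2.01-fold lower (log2 fold change -1.01, SE 0.156, adjusted p = 8.07e-05). Lenti-Klf4 replicate 1 was the lowest library for all 3. Unlike the SOXC genes, these span long loci on the minus strand: 953553 bases for Sox5 (chromosome 6, 143774151 to 144727703), 567873 for Sox6 (chromosome 7, 115070107 to 115637979) and 42075 for Sox13 (chromosome 1, 133310041 to 133352115), with up to 15, 17 and 14 exons. The antisense genes Sox5os3 and Sox6os lie within Sox5 and Sox6, and averaged at most 0.0385 CPM. Whether the counting used strand is not stated. The nearest gene upstream of Sox5, Bcat1, rose from 76.1 ± 3.02 to 264 ± 7.49 CPM while Sox5 fell. The gene 653 bases from Sox6, 1110004F10Rik, was at 101 ± 1.77 and 95.7 ± 5.29 CPM (adjusted p = 0.0928). Of the other nearest neighbours in the table, Zcchc3, 13892 bases from Sox12, rose from 5.61 ± 0.827 to 7.72 ± 0.893 CPM. Etnk2, 1967 bases from Sox13, was at 0.216 ± 0.139 and 0.378 ± 0.126 CPM, and Tcea2, 8670 bases from Sox18, at 4.47 ± 0.474 and 4.64 ± 0.794 CPM, and neither passed. The others were below the filter.

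**Figure D2:**
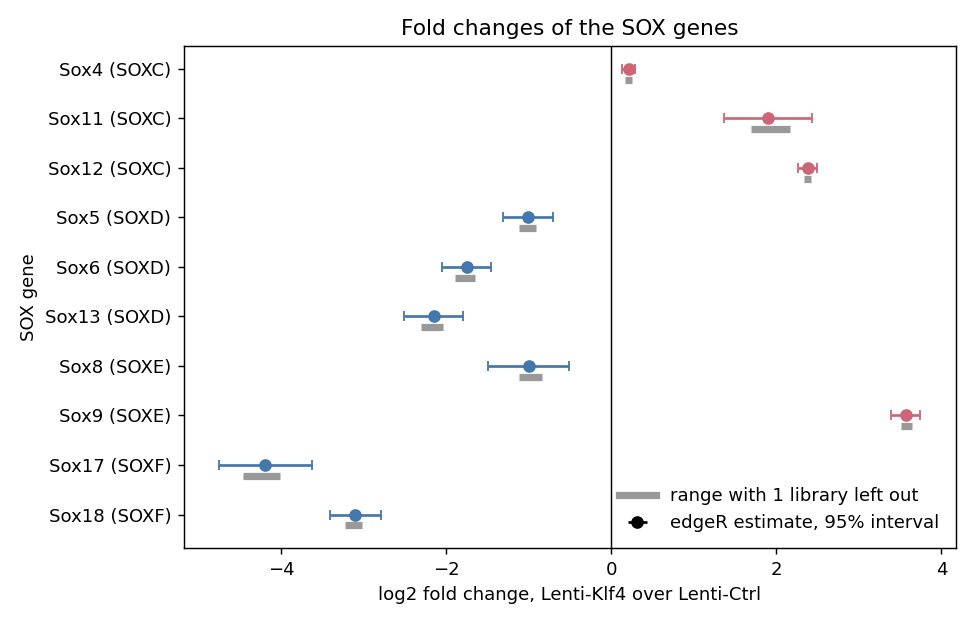
Log2 fold change of Lenti-Klf4 over Lenti-Ctrl for each SOX gene, with an approximate 95% interval from an SE derived from edgeR's F statistic (points and whiskers) and the range of the estimate when each of the 8 libraries is left out in turn (grey bars). No grey bar crosses 0; Sox4, at 0.21, lies nearest to it, and Sox17, at -4.19, farthest below.

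The SOXF genes had the largest falls. SOX17 and SOX18 act in vessel formation, and SOX18 also in lymphatic vessels. Sox17 (chromosome 1, 4561154 to 4566980, minus strand) was at 5.54, 6.96, 7.32 and 6.13 CPM in Lenti-Ctrl and 0.216, 0.225, 0.532 and 0.450 CPM in Lenti-Klf4. It fell 18.2-fold, from 1583 to 97 counts over each group of 4 libraries (log2 fold change -4.19, SE 0.287, adjusted p = 3.83e-08). Sox18 (chromosome 2, 181311629 to 181313433, minus strand) was at 10.8, 12.9, 11.4 and 11.6 CPM in Lenti-Ctrl and 1.13, 1.45, 1.72 and 1.16 CPM in Lenti-Klf4, 8.54-fold lower (log2 fold change -3.10, SE 0.159, adjusted p = 2.49e-09). The third gene of the subgroup, Sox7, fell too, from 4.41 ± 0.405 to 0.541 ± 0.417 CPM (a change of -3.06 on the log2 scale, SE 0.541, adjusted p = 2.48e-04), and its Lenti-Klf4 libraries were spread widely, from 0.0455 CPM in replicate 1 to 1.05 CPM in replicate 2.

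Endothelial markers fell with the SOXF genes. Of 18 such markers 16 fell and 2 did not pass, where 34.7% of all genes tested were lower. Their median log2 fold change was -3.27, and none was at 0 in either group. Their sum was 678, 672, 664 and 668 CPM in Lenti-Ctrl and 73.4, 94.5, 92.6 and 89.3 CPM in Lenti-Klf4, a 7.66-fold fall. Beside it stand 8.54-fold for Sox18, 8.16-fold for Sox7 and 18.2-fold for Sox17. Flt1, Ptprb and Cdh5 made up most of the sum in Lenti-Ctrl. Single markers called lower ranged widely, from a 1.44-fold fall for Vwf to 16.1-fold for Emcn. Cdh5, the cadherin of endothelial junctions, fell from 93.9 ± 1.77 to 7.12 ± 1.9 CPM, Flt1, a VEGF receptor, from 170 ± 1.95 to 12.4 ± 1.08 CPM, and Ptprb from 113 ± 4.01 to 11.5 ± 1.45 CPM. Esam and Clec14a did not pass, at 12.2 ± 0.632 and 11.3 ± 1.20 CPM for Esam and 2.53 ± 0.642 and 2.85 ± 0.562 CPM for Clec14a. In bulk RNA fewer cells of a type and less RNA per cell cannot be told apart, and the same holds for the macrophage markers given above. The part of endothelial cells in the SOXF result was not tested.

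**Figure D3:**
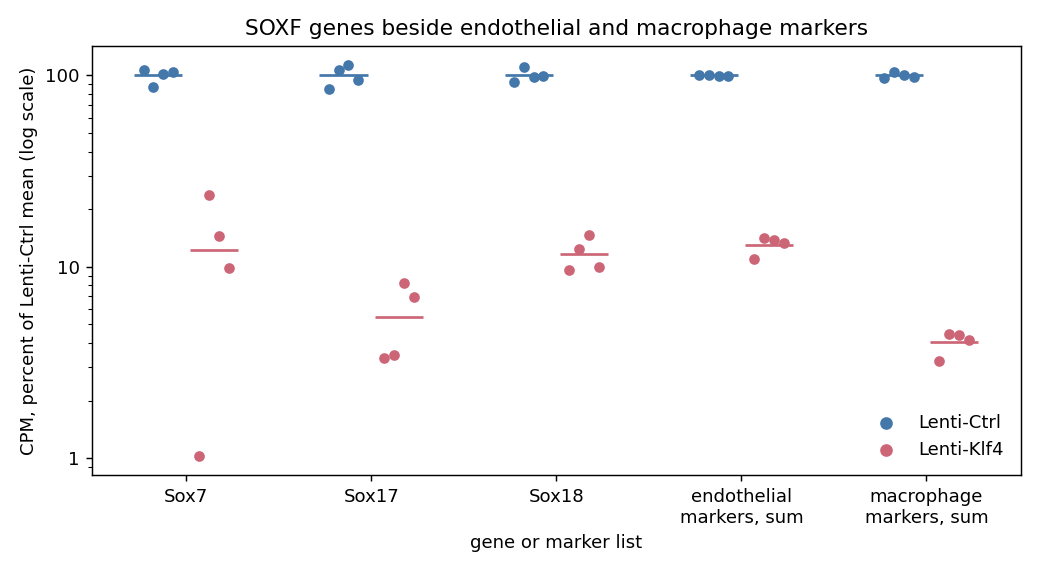
CPM of the 3 SOXF genes and summed CPM of the endothelial and the macrophage markers in each library, as a percent of the Lenti-Ctrl mean (log axis); points are libraries and bars are means of 4. The endothelial sum fell 7.66-fold, Sox7 8.16-fold, Sox18 8.54-fold and Sox17 18.2-fold. The macrophage sum, most of it from Lyz2, fell 24.6-fold.

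Genes known as targets of the SOXF factors were lower as well. All 6 on the list passed as lower, with a median log2 fold change of -1.95, where 34.7% of all genes tested were lower. Efnb2 was the exception to a stable direction: it was at 83.4 ± 4.68 and 74.4 ± 2.49 CPM (log2 fold change -0.17), and its sign turned to 0.030 when scaled by library totals alone. Robo4, a guidance receptor of endothelium, fell from 8.49 ± 0.356 to 0.980 ± 0.272 CPM, and Prox1, the factor of lymphatic identity that SOX18 switches on, from 20.1 ± 1.29 to 4.08 ± 1.10 CPM. Vcam1, an adhesion molecule that fibroblasts express too, fell less, from 332 ± 15.2 to 218 ± 11.2 CPM. Endothelial markers moved with these genes, and their part in this result was not tested.

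Known targets of SOXC factors were mixed. Of 4 genes 2 rose, 1 fell and Dcx, with 12 counts in all, was below the filter. These few calls stand beside 37.5% higher and 34.7% lower over all genes tested. Tead2, a TEAD factor that SOXC proteins activate, rose from 24.8 ± 1.82 to 100.5 ± 2.51 CPM (a change of 2.02 on the log2 scale, SE 0.0531, adjusted p = 5.69e-12), and Ezh2, the histone methyltransferase of Polycomb complexes that SOX4 activates, from 23.8 ± 1.96 to 117 ± 6.20 CPM (a change of 2.30 on the log2 scale, SE 0.0611). Tubb3, a neuronal tubulin and SOX11 target, fell from 37.0 ± 2.63 to 6.22 ± 1.09 CPM (a change of -2.57 on the log2 scale, SE 0.117, adjusted p = 7.49e-10).

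Cartilage genes did not move as 1 group, although SOX9, SOX5 and SOX6 are known to drive them together. Of 18 listed, 8 had enough counts to be tested, and of these 3 rose, 3 fell and 2 did not pass (median log2 fold change 0.57). Over all genes tested 37.5% were higher and 34.7% lower. Col11a1, a fibrillar collagen chain that fibroblasts also make, fell from 877 ± 20.1 to 44.7 ± 4.87 CPM, and it made up most of the list's summed level, 868 to 914 CPM in Lenti-Ctrl and 59.5 to 73.0 CPM in Lenti-Klf4. Acan, encoding the cartilage proteoglycan aggrecan, fell from 1.23 ± 0.617 to 0.0342 ± 0.0685 CPM. Col11a2, a partner chain of Col11a1, rose from 2.94 ± 0.454 to 7.90 ± 0.295 CPM. Matn4, a matrix adaptor, rose from 0.0984 ± 0.0917 to 5.45 ± 0.479 CPM (a change of 5.78 on the log2 scale, SE 0.457, adjusted p = 1.58e-07). Acan in Lenti-Klf4 and Matn4 in Lenti-Ctrl were near 0. Each thus entered the test through its other group, and its direction was largely set by the filter. Matn3 was at 0.311 ± 0.203 and 0.256 ± 0.129 CPM (adjusted p = 0.672) and Comp at 0.275 ± 0.240 and 0.758 ± 0.212 CPM (adjusted p = 0.0963). Comp passed as higher without Lenti-Ctrl replicate 1 (log2 fold change 2.00, adjusted p = 0.0486), with limma-voom (log2 fold change 2.36, adjusted p = 0.0213) and on log2(FPKM + 1) and log2(FPKM + 0.1) (adjusted p = 0.00596 and 0.00773). Col2a1, the classical SOX9 target, had 0 counts over the control libraries and 20 over the Lenti-Klf4 libraries, so it was near the detection limit while Sox9 had 9048 counts in the latter.

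Genes reported as SOX9 targets in liver fibrosis mostly fell while Sox9 rose. Of 5 such genes 4 fell, where 34.7% of all genes tested were lower. Spp1 rose, from 364 ± 7.36 to 601 ± 35.6 CPM (a change of 0.72 on the log2 scale, SE 0.0388, adjusted p = 3.73e-09). Spp1 encodes osteopontin, and it and Gpnmb were picked out after their values were seen. Timp1, an inhibitor of matrix metalloproteinases, fell from 876 ± 20.8 to 185 ± 14.8 CPM, Fn1, encoding fibronectin, from 8325 ± 158 to 4221 ± 123 CPM, and Vim, encoding vimentin, from 3166 ± 49.7 to 2149 ± 16.9 CPM. Gpnmb, which macrophages also express, fell from 1212 ± 10.8 to 256 ± 38.8 CPM.

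Partners and cofactors of SOX proteins changed in both directions, as did genes over the whole test (37.5% higher, 34.7% lower). Of 14 listed, 11 passed the filter, 4 rose, 6 fell and 1 did not pass, and the median log2 fold change was -0.07. With library totals alone 3 in place of 6 were lower, and with FPKM 2. Under these settings Ctnnb1, encoding beta-catenin, passed in the opposite direction, with a log2 fold change of 0.12 for totals alone (adjusted p = 2.44e-04) in place of -0.0708. The largest change was in Pax3, a paired-box factor of neural crest and muscle that acts with SOX10, from 0.415 ± 0.235 to 13.5 ± 1.63 CPM (a change of 4.99 on the log2 scale, SE 0.310, adjusted p = 1.52e-08). Mef2c, a partner of SOX18, fell from 8.59 ± 1.64 to 1.68 ± 0.494 CPM, and Rbpj, the DNA-binding effector of Notch, rose from 133 ± 5.61 to 223 ± 5.44 CPM. Pou3f1 did not pass, at 0.157 ± 0.104 and 0.391 ± 0.257 CPM (adjusted p = 0.130), but passed as higher without Lenti-Klf4 replicate 3 (log2 fold change 1.63, adjusted p = 0.038). The coactivators Ep300 and Crebbp were lower by 0.26 and 0.25 on the log2 scale, with values of 93.9 ± 0.278 and 78.3 ± 2.51 CPM for Ep300.

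**Figure D4:**
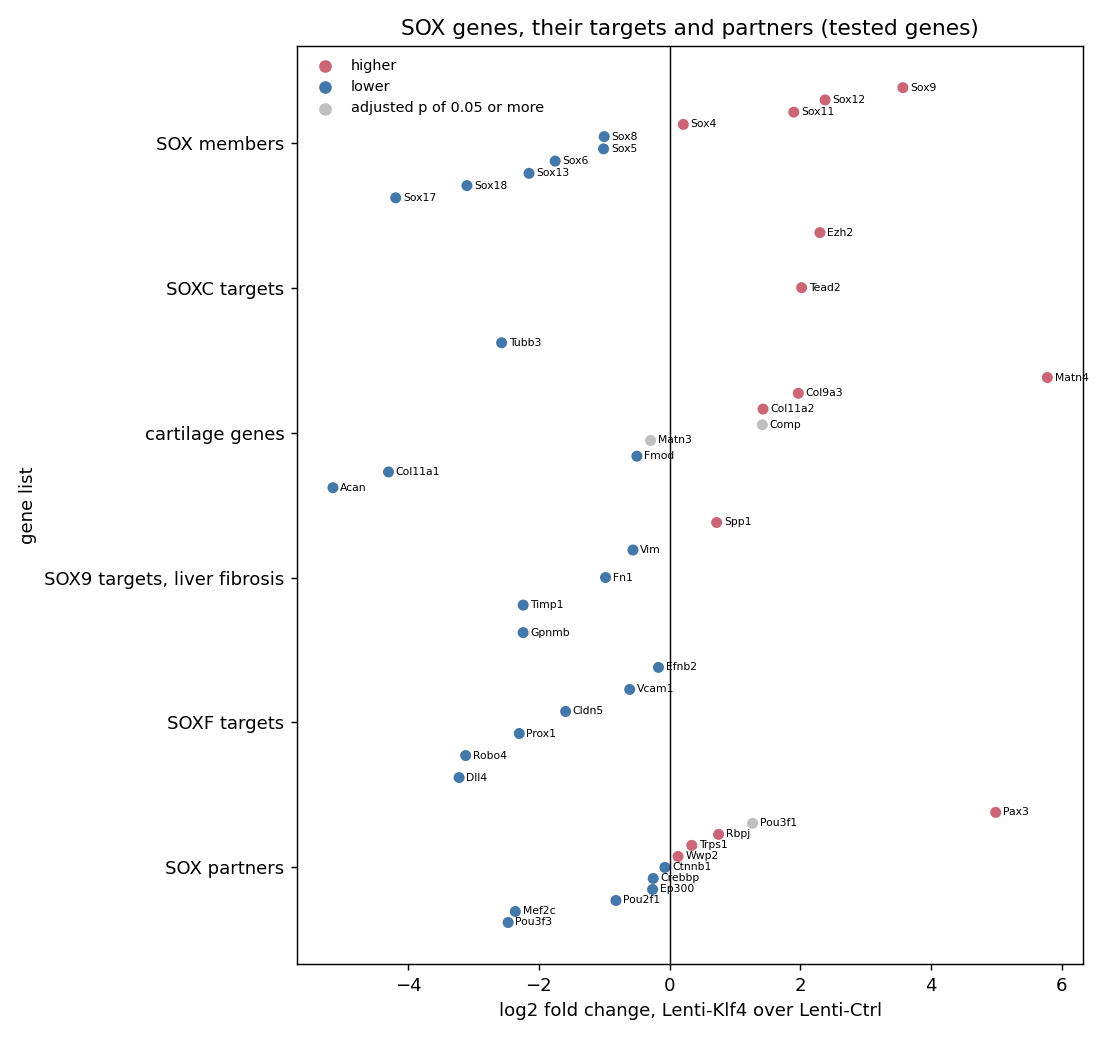
Log2 fold changes (Lenti-Klf4 over Lenti-Ctrl) of the tested SOX genes and of the tested genes on each list of targets and partners; each point is 1 gene, coloured by its call at an adjusted p of 0.05. The 6 SOXF targets lie below 0 and the cartilage genes spread from -5.15 for Acan to 5.78 for Matn4. Acan was near 0 CPM in Lenti-Klf4 and Matn4 near 0 CPM in Lenti-Ctrl.

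Markers of cells that express SOX9 or SOX10 were examined beside them. Of 12 cholangiocyte markers tested, 4 rose, 2 fell and 6 did not pass, with a median log2 fold change of -0.24. Over all genes tested 37.5% were higher and 34.7% lower. The sum of all 15 markers was 41.4 to 44.2 CPM in Lenti-Ctrl and 76.7 to 108 CPM in Lenti-Klf4. Most of this sum came from Krt7 and Krt19. The duct keratins Krt7 and Krt19 rose, from 13.2 ± 0.677 to 56.7 ± 7.10 CPM and from 10.5 ± 1.05 to 23.7 ± 4.98 CPM. Epcam did not pass, at 1.26 ± 0.113 and 0.991 ± 0.230 CPM, nor did Cdh1, at 5.67 ± 0.925 and 5.20 ± 0.456 CPM, and the claudin gene Cldn4 fell from 5.79 ± 0.527 to 1.96 ± 0.590 CPM. Of 8 Schwann and glial markers tested 3 fell and 5 did not pass, where 34.7% of all genes tested were lower. Mbp, a myelin gene, fell from 18.7 ± 0.828 to 7.93 ± 0.711 CPM. S100b, at 0.555 ± 0.323 and 0.119 ± 0.0894 CPM, and Ngfr, at 4.21 ± 0.547 and 2.88 ± 0.928 CPM, passed as lower, but both calls were lost without Lenti-Ctrl replicate 1 (adjusted p = 0.0524 and 0.108). Erbb3, at 1.81 ± 0.378 and 1.24 ± 0.423 CPM, did not pass, but passed as lower without Lenti-Klf4 replicate 4 (adjusted p = 0.0353). Sox10, the third SOXE gene, was at 0.475 ± 0.128 and 0.262 ± 0.0917 CPM and did not pass (adjusted p = 0.110).

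Levels of different SOX genes can be compared only per length, for which the authors' FPKM values were used. No TMM factors were applied to them, so differences between the groups in FPKM are not those in CPM. In Lenti-Ctrl the order was Sox4 (22.4 ± 1.35 FPKM), Sox18 (6.22 ± 0.452), Sox12 (2.61 ± 0.158), Sox13 (1.62 ± 0.0889), Sox17 (1.17 ± 0.147), Sox6 (0.675 ± 0.0559), Sox9 (0.562 ± 0.0575), Sox5 (0.517 ± 0.0976), Sox8 (0.315 ± 0.0156) and Sox11 (0.116 ± 0.0471). Only the ranges of Sox6 with Sox9 and of Sox9 with Sox5 overlapped between neighbours. In Lenti-Klf4 Sox4 stayed first at 29.7 ± 0.846 FPKM, followed by Sox12 at 15.6 ± 0.643 and Sox9 at 7.74 ± 0.161 FPKM. The other 7 genes were at or below 1.05 FPKM in every Lenti-Klf4 library. Among them the ranges of Sox11, Sox13, Sox5, Sox6 and Sox8 each overlapped with the neighbour in that order. Sox18 thus went from the second to the fourth place, at 0.830 ± 0.172 FPKM, and Sox9 from the seventh to the third.

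The make-up of the SOX transcript pool shifted accordingly. The 10 genes summed to 36.2 ± 1.34 FPKM in Lenti-Ctrl and 55.5 ± 0.906 FPKM in Lenti-Klf4. In CPM with TMM factors they summed to 186 to 199 in Lenti-Ctrl and 255 to 267 in Lenti-Klf4, a 1.38-fold rise. The SOXC share of the FPKM sum was 69.3 ± 1.75% in Lenti-Ctrl and 82.4 ± 0.844% in Lenti-Klf4, although the share of Sox4 alone went from 61.8 ± 2.07% to 53.4 ± 0.818%, while Sox12 went from 7.20 ± 0.450% to 28.1 ± 1.19%. The SOXE share went from 2.43 ± 0.241% to 14.3 ± 0.235%. The SOXF share went from 20.4 ± 1.46% to 1.62 ± 0.345%, and the SOXD share from 7.78 ± 0.333% to 1.70 ± 0.301%. Each of the 4 shares gave p = 0.0286 by the exact two-sided permutation test, adjusted p = 0.0286 over the 4, the smallest that this design allows, with no overlap between groups. The shares add to 100%, so they are not independent of each other. Computed from CPM in place of FPKM, the differences (Lenti-Klf4 minus Lenti-Ctrl) kept their signs, but the SOXF difference was -8.91 in place of -18.8 percentage points and the SOXD difference -11.3 in place of -6.08.

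**Figure D5:**
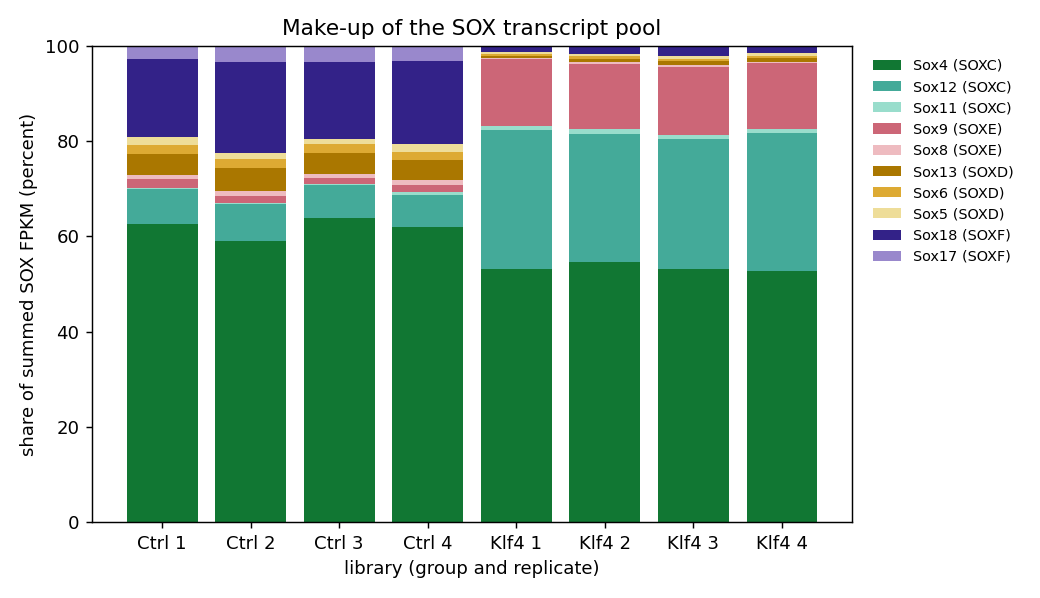
Share of each SOX gene in the summed FPKM of the 10 genes (percent, stacked to 100), 1 bar per library. Sox4 is the largest part everywhere; in Lenti-Klf4 Sox12 holds 28.1% and Sox9 13.9% on average, and the SOXF part shrinks to 1.62%.

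The rest of the SOX family was at or near the detection limit, apart from Sox7. Of 10 further SOX genes listed, 7 were in the table, and Sox1, Sox14 and Sry were not analysed here. Sox3 had 0 counts in all libraries and Sox2 31 and 24 counts over the groups. Sox15 had 3 counts in Lenti-Ctrl and 48 in Lenti-Klf4, of which replicate 1 held none, and Sox30 had 45 and 4. Sox21 had 50 counts over the control libraries, of which replicate 3 held none, and 0 over the Lenti-Klf4 libraries. With 3 counts over the 4 libraries taken as the limit of a 0, its pooled counts were at least 18.8-fold lower. That limit covers counting error only, the groups overlap at 0, and Sox21 was not tested. Of these 7, Sox7 and Sox10 passed the filter of the test.

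The genes most like Sox9 and Sox4 over the 8 libraries were named by the root mean square difference of log2 CPM centred on each gene's mean, among 14370 other genes averaging 1 CPM or more. For Sox9 they were Hsph1, a heat shock chaperone gene (0.0824), Klf5, a Kruppel-like factor gene (0.114), and Dctd, encoding a deaminase of nucleotide synthesis (0.118). Klf5 went from 3.85 ± 0.743 to 45.3 ± 3.59 CPM. For Sox4 they were the pseudogene Rpl15-ps3 (0.0279), Ndufa10, encoding a subunit of respiratory complex I (0.0311), and Myo9a, encoding a myosin (0.0313), whose log2 fold changes were 0.22, 0.24 and 0.26. The log2 fold changes of the 3 genes like Sox9 were 3.43, 3.55 and 3.68, near its 3.57. The measure includes the difference between the groups. For Sox9 and Sox4 alike, the near fold changes thus follow from how these genes were picked and are no separate result. Reads of a pseudogene such as Rpl15-ps3 may come from its parent gene.

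The authors' deposited table of their own comparison held 3 of the 10 SOX genes among 11361 genes. In the authors' deposited table the log2 fold change was 2.30 for Sox12, -3.18 for Sox18 and 0.13 for Sox4, each with an adjusted p below 0.05.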

How the data were processed

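RNA of 8 libraries (4 Lenti-Ctrl, 4 Lenti-Klf4) was sequenced in pairs of 150 bases from polyadenylated RNA, per the labels. The authors deposited raw counts per gene and FPKM values in 1 table and a DESeq2 result with log2 fold changes and adjusted p-values (padj) in another, per the file headers. GRCm39, HISAT2 2.2.1, StringTie 2.1.6, cutadapt 1.9 and DESeq2 appear in the submitters' processing notes. The counting step, its strand setting and its rule for reads with several matches are not given in the sources used here. Library columns were matched through the library names in the labels.

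The counts went into edgeR 4.0.16 under R 4.3.3 (filterByExpr, TMM, quasi-likelihood F test, group as the only term), with Benjamini-Hochberg adjustment over all 18439 genes tested and a threshold of 0.05. All 10 SOX genes passed the filter. The SE of a log2 fold change is not given by edgeR and was taken as its absolute value divided by the square root of F. Approximate 95% intervals reach 1.96 SE to either side. CPM use totals multiplied by TMM factors. Exact permutation tests (scipy 1.17.1) used log2 CPM with 0.1 added, or percent shares. Alternatives used DESeq2 1.42.0, limma 3.58.1 and other scalings and filters. The edgeR step was tested on simulated data with 200 changed genes. It recovered 52.5% of 1.5-fold, 64% of 2-fold and 88.5% of 4-fold changes, with 4, 10 and 7 false calls. No change as small as that of Sox4 was simulated. Far fewer genes changed than in the data, so the simulation cannot judge the scaling. Replicates differed beyond sampling noise (mean chi-square per gene 9.18 to 21.3). Pairs with Lenti-Klf4 replicate 1 were at 16.3 to 21.3, the other Lenti-Klf4 pairs at 9.27 to 10.4 and the Lenti-Ctrl pairs at 9.18 to 14.3. The labels name no molecular identifiers, so floors cover counting error only. Figures were drawn with matplotlib 3.10.9.

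The SOX genes and the gene lists (SOX targets, partners and cofactors, markers of endothelial, cholangiocyte, Schwann and glial, macrophage and leukocyte, fibroblast and hepatocyte cells) were chosen with earlier results of these data known. Named genes are all SOX genes and Klf4, from each list at most 3 genes ranked by adjusted p plus at most 2 abundant ones that did not pass, the nearest neighbours, and the genes most alike to Sox9 and Sox4. Spp1, Gpnmb, Efnb2, Acan, Dcx, Col2a1, Ctnnb1, Ep300, Crebbp, Thy1, Gli1, Vwf, Emcn, Lyz2, Lef1, Hmgb2 and Tcf7 were chosen after their values were seen, as was the GGGCGG motif. Promoter windows, on GRCm38.p6 from RefSeq, were matched by gene identifier for 7 of 10 SOX genes (not Sox9, Sox17 and Sox18). Of the genes named by the rule above, 1 is not reported here.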

Additional observations from a re-analysis of the deposited data

Results flagged for a closer look

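Groups of 4 libraries were checked for a single library far from the others. The check covered the tested SOX genes, the subgroup shares, Klf4 and the tested genes picked from the lists by rank. Of 118 such groups 1 stood out, where chance alone gives about 1 in 20. It was Cps1, a urea cycle gene on the hepatocyte list, in Lenti-Ctrl, where replicate 4 held 0.147 CPM and the other libraries 0. No tested SOX gene and no share stood out in this way. SOX genes below the filter and genes chosen after their values were seen were not among these groups. Of the former, Sox15 in Lenti-Ctrl and Sox30 in Lenti-Klf4 had counts in replicate 1 alone. Lenti-Klf4 replicate 1 was still the lowest library of its group for Sox5, Sox6, Sox8, Sox13, Sox17 and Sox18.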

How the results depend on the processing

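All 10 SOX genes kept their direction and an adjusted p below 0.05 under all alternatives run: other scalings, filters and tests, FPKM in place of counts, the replicate block, and each library left out in turn. With libraries left out, log2 fold changes ranged from 3.51 to 3.64 for Sox9, 0.17 to 0.25 for Sox4 and -4.46 to -4.01 for Sox17. On log2(FPKM + 1), which understates low genes, Sox17 was at -1.02, Sox11 at 0.42 and Sox8 at -0.16. The percent of calls that were higher over all genes was 52.0 and moved to 61.7 with library totals alone. Small changes turned sign with totals alone, log2(FPKM + 1) and log2(FPKM + 0.1): Efnb2 to 0.030, 0.032 and 0.035, Esam to 0.086, 0.070 and 0.085, Cdh1 to 0.069, 0.042 and 0.077, and Ctnnb1 from -0.0708 to 0.12, 0.13 and 0.13, where it passed as higher. Matn3 ranged from -0.68 to 0.22 with libraries left out, turning sign without Lenti-Ctrl replicate 2. Ngfr kept its sign but lost its call under 10 alternatives, the replicate block among them (adjusted p = 0.0629). Of the SOX genes outside the 10, 1 was lower and 0 higher. With no filter or DESeq2 3 were lower, and 1 was higher with DESeq2, without Lenti-Ctrl replicate 1 or without Lenti-Klf4 replicate 1.

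Libraries with the same replicate number deviated from their group means with correlations of 0.0194 to 0.0486, against -0.0425 to 0.0219 for other pairs, and 7 of 8 libraries correlated best with their own number. This is a hint from the data and not the design, so the test was not paired. With the replicate block 6730 genes were higher and 6188 lower, against 6914 and 6393, and the SOX counts remained 4 higher and 6 lower. Depth limits Sox2, Sox3, Sox15, Sox21, Sox30 and Col2a1, which had under 60 counts in each group.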

Other observations

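Other genes that the deposited table annotates as HMG-box transcription factors were a set chosen after the data were seen. Of 25 tested, 15 rose, 6 fell and 4 did not pass (median log2 fold change 0.54, median absolute value 0.57), where 37.5% of all genes tested were higher and 34.7% lower. The difference from the SOX genes was not tested. Lef1, the HMG-box effector of Wnt signalling, rose from 2.05 ± 0.885 to 6.37 CPM and Hmgb2, a chromatin protein of dividing cells, from 22.9 ± 1.02 to 93.9 CPM, while Tcf7 was at 4.44 ± 0.711 and 3.62 CPM and did not pass (adjusted p = 0.166).

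Of 8 hepatocyte markers 4 were tested. These 4 were near 0 in Lenti-Ctrl and entered the test through their Lenti-Klf4 counts, so their direction was largely set by the filter, and with a minimum of 1 CPM in 4 libraries 2 were called higher. The sum over all 8 was 0.28 to 0.883 CPM in Lenti-Ctrl and 9.63 to 12.5 CPM in Lenti-Klf4. Alb, encoding albumin, was at 0.271 ± 0.284 and 2.98 ± 0.471 CPM, Fgb, a fibrinogen chain, at 0.0371 ± 0.0428 and 1.15 ± 0.408 CPM, and Cps1 at 0.0368 ± 0.0736 and 6.10 ± 0.875 CPM. In the macrophage list all 18 markers tested fell (median log2 fold change -5.33), where 34.7% of all genes tested were lower. Among them was Vsig4, from 163 ± 7.19 to 0.453 ± 0.164 CPM. Macrophage markers at or near 0 in Lenti-Klf4 entered the test through their Lenti-Ctrl counts, so their direction was largely set by the filter. C1qb and C1qc fell by 6.37 and 6.4 on the log2 scale. Among the fibroblast markers Eln, Col1a1 and Pdgfrb fell, with log2 fold changes of -5.70, -1.98 and -1.36, and Thy1 and Gli1 rose. Gli1 had 8 counts over Lenti-Ctrl and 193 over Lenti-Klf4, so its direction was largely set by the filter.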
